A study of Mus musculus with 6 samples.

Results

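Keratins are the intermediate filament proteins of epithelial cells, and keratin-associated proteins embed the keratins of hair. Their genes were picked by symbol from arrays of neural cultures grown from W4, a line of mouse embryonic stem cells: every gene named Krt followed by a number alone, or Krtap followed by a number, that had a probe set annotated to it and to no other gene. This gave 92 of the 19938 genes measured, 48 keratins and 44 keratin-associated proteins, each with 1 probe set. Keratins with a letter after the number, such as Krt6a and Krt33a, fall outside this naming rule. The first group was kept in 300 uM valproate (VPA), used against epilepsy and known to inhibit histone deacetylases, for 16 days of neural differentiation. The second group received the solvent, phosphate-buffered saline (PBS), in the same medium, with B27, N2 and bFGF, for the same 16 days. Each group had 3 arrays, described as biological replicates, and all came from 1 cell line. No allele or transgene is named for either group.

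Keratin filaments are built from pairs of a type I and a type II chain, so that neither chain forms a filament alone. Krt8 and Krt18 are the pair of simple, single-layered epithelia and appear first in the embryo, with Krt7, Krt19 and Krt20 in particular simple epithelia. Krt5 and Krt14 mark the basal layer of stratified epithelia such as epidermis, Krt1 and Krt10 its upper layers, and a further set of keratins is made in the hair follicle, where keratin-associated proteins cross-link them. None of these is a marker of neurons.

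The values are log2 signals of probe sets, and a change is VPA minus PBS. Array medians lay between 6.99 and 7.03. Median absolute differences between arrays over all genes were 0.0605 to 0.0663 among the PBS arrays and 0.073 between VPA replicates 2 and 3. VPA replicate 1 lay 0.125 and 0.132 from the other VPA arrays, and 0.144 to 0.151 from the PBS arrays. Over the 92 members it was closer to the PBS arrays (0.105 to 0.118) than to VPA replicates 2 and 3 (0.185 and 0.146). The mean signal that 95% of 1027 olfactory receptor genes did not exceed, 6.155, served as a gauge of background, since these genes are mostly silent outside the nose. All 12 neuronal markers checked, among them Mapt, Dcx and Gap43, lay above the gauge in both groups. Of the 12, 9 (75%) fell with VPA, against 15.7% of all genes.

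Krt8, Krt18 and Krt19 rose with VPA, by 1.38-fold to 1.47-fold, while the other simple epithelial keratins, Krt7 and Krt20, did not pass the test. Over the whole family 10 of 92 genes rose and 2 fell by limma at a Benjamini-Hochberg adjusted p under 0.05 over all genes, which is 13% of the family against 29.2% of all genes. Brightness bears on this share. Among genes with both means below the background gauge, 10.2% of 59 members passed, near the 11.5% of all 5728 such genes. Among brighter genes 18.2% of 33 members passed, against 36.4% of 14210 genes. By direction, 13.6% of all genes rose and 15.7% fell. The groups did not overlap for 24 members, 17 with VPA above and 7 with VPA below, against 44% of all genes. The count of calls moved with single arrays. It was 33 without VPA replicate 1, with 30 higher and 3 lower, 6 without VPA replicate 2 and 7 without VPA replicate 3. Without PBS replicate 1 it was 6, without PBS replicate 2 it was 6 and without PBS replicate 3 it was 8. The count over all 19938 genes moved the same way, with 8173 calls without VPA replicate 1 and 3836 to 4947 without any other array, against 5825 with all arrays.

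Most of the family was near background. Both group means lay below the gauge for 59 of the 92 members, and for 5728 of 19938 genes overall. Of the simple epithelial keratins 1 of 5 was below it in both groups, of the stratified ones 14 of 22, of the inner root sheath ones 5 of 8, of the hair ones 7 of 12 and of the keratin-associated proteins 31 of 44. Krt222, a keratin outside these lists, was below it too. For a gene with a mean below 6.155 a change is a difference between measured signals only, and its true size is not defined.

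Krt8, the type II chain of simple epithelia, had signals of 7.998, 7.87 and 7.76 on the VPA arrays, against 7.44, 7.36 and 7.15 on the PBS arrays. Every VPA array was above every PBS array. The change was 0.56 (SE 0.09, limma adjusted p = 0.00193), with a 95% interval of 0.35 to 0.76. Krt18, its type I partner, had 7.38, 7.32 and 7.54 with VPA, against 7.03, 6.87 and 6.95 with PBS. It rose by 0.46 (SE 0.08, limma adjusted p = 0.00183), again without overlap, so the chains of this pair moved together and by similar amounts. Krt19, a short type I chain that can also pair with Krt8, had 6.76, 6.34 and 6.48 with VPA, against 6.05, 5.91 and 6.03 with PBS. It rose by 0.53 (SE 0.10, limma adjusted p = 0.00447), with its PBS mean of 5.99 below the gauge, and the call did not hold when gene variances were left unmoderated (adjusted p = 0.0688). In a mixed culture, more cells of a type and more RNA per cell cannot be told apart.

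Krt7, a type II keratin of ducts and glands, had 6.39, 6.34 and 6.45 with VPA, against 6.49, 6.61 and 6.41 with PBS. The groups overlapped, and the change was -0.11 with a 95% interval of -0.26 to 0.05 (limma adjusted p = 0.274). Krt20, a type I keratin of the gut lining, had 4.93, 5.03 and 4.80 with VPA, against 5.11, 5.08 and 4.94 with PBS, all below the gauge. Its change was -0.13 with an interval of -0.30 to 0.05 (limma adjusted p = 0.265). The upper ends of both intervals lie below the lower ends of those of Krt8, Krt18 and Krt19.

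**Figure D1:**
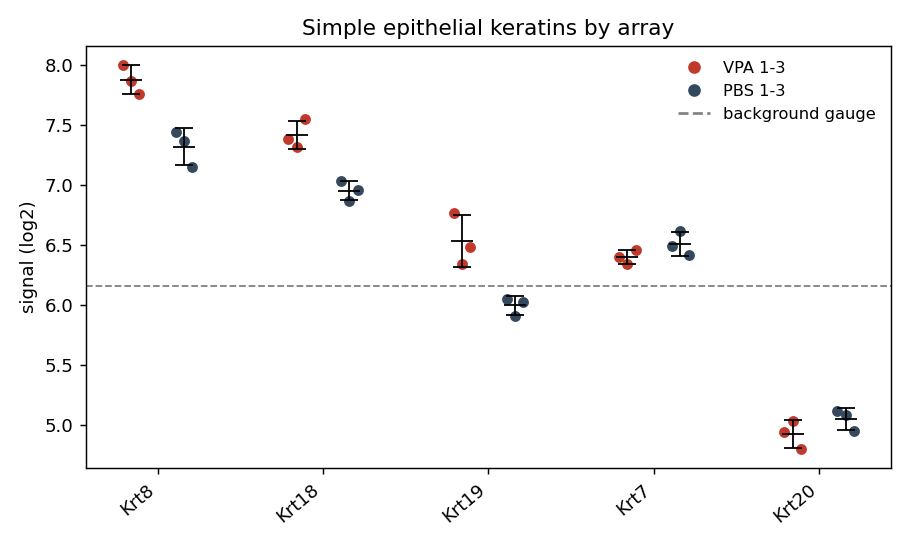
Log2 signal (y axis) of the 5 simple epithelial keratins on the VPA and PBS arrays. Points are arrays, bars are the mean and SD of 3 arrays, and the dashed line is the background gauge of 6.155. The VPA arrays lie above the PBS arrays without overlap for Krt8, Krt18 and Krt19, and overlap them for Krt7 and Krt20.

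Krt8 and Krt18 are neighbours, with 0 protein-coding genes between them in the RefSeq gene order of GRCm38.p6, although Krt18 is a type I gene beside the type II cluster. Promoter windows of RefSeq (GRCm38.p6), from 250 bases before to 50 after the annotated start, were available for 75 of the 92 members. Those of Krt8 and Krt18 are shown because this pair moved together, and that of Krt7 because it is a simple keratin that did not pass. Those of Krtap10-4 and Krtap3-3 stand for the keratin-associated genes with the largest changes. Capitals mark a match on either strand to 1 of 4 motifs. The TATA box was searched for as the letters TATAAA. The GC box was searched for as the letters GGGCGG. The AP-1 site was searched for as the letters TGACTCA. The E-box was searched for as the letters CAGGTG. In Krt8 a TATA box on each strand overlap, and they begin 1 and 3 bases before the annotated start, so they span it.
Krt8, chr15:102004293-102004592, minus strand: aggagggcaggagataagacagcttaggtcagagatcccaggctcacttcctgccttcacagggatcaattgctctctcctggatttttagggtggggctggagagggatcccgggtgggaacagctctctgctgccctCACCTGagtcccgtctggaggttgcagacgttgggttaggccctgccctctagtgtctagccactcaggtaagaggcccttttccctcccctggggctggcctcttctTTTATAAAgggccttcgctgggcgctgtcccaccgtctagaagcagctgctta
Krt18, chr15:102027966-102028265, plus strand: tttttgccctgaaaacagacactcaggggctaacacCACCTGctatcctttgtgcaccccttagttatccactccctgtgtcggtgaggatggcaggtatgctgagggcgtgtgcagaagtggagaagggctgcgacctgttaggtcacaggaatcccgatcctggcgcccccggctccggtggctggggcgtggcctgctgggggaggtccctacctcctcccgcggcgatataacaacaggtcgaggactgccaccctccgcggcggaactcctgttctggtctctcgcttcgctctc
Krt7, chr15:101412153-101412452, plus strand: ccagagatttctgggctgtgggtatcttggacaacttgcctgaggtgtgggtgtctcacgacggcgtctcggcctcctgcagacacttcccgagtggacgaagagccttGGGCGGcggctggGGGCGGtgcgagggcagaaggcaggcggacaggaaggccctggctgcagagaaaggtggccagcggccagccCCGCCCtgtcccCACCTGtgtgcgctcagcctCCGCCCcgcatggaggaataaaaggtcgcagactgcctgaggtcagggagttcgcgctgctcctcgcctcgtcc
Krtap10-4, chr10:77827021-77827320, minus strand: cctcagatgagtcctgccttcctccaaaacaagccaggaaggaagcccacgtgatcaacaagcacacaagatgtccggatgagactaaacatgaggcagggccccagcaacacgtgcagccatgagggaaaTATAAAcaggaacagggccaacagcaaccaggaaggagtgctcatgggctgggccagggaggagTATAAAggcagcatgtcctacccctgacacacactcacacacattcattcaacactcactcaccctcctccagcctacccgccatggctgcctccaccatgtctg
Krtap3-3, chr11:99550814-99551113, minus strand: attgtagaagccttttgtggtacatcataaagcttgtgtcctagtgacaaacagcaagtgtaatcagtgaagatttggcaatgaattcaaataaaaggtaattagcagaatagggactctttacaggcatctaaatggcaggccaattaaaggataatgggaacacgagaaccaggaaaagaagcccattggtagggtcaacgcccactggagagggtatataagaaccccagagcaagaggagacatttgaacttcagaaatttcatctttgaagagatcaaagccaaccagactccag

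The windows of Krt8, Krt18 and Krt7 each held 1 E-box, on the strand opposite to the gene, beginning 111, 214 and 44 bases before the start. E-box letters occurred in 20.2% of 32817 windows of all genes and in 38.2% of 76 windows of the family. They were in 41.2% of windows of stratified, 42.9% of inner root sheath and 25% of hair keratins, and in 35% of keratin-associated genes. The Krt7 window held 4 GC boxes and 21 CpG dinucleotides. The Krt18 window had 0 GC boxes and 17 CpG, and the Krt8 window 0 GC boxes and 6 CpG. The windows of Krt8 and Krt18 thus differed from each other in CpG content, and of these 3 windows that of Krt7 alone held the GC box.

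Across the family the share of windows with a TATA box differed between classes. The TATA box was present in 32 of 40 windows of keratin-associated genes (80%), in 7 of 7 of inner root sheath keratins and in 5 of 8 of hair keratins (62.5%), against 13.6% of all windows. It was present in 4 of 17 windows of stratified keratins (23.5%) and in 2 of 4 of simple ones, among them Krt8, where it spans the start. The GC box was in 0 of 40 windows of keratin-associated genes, 0 of 7 of inner root sheath keratins and 0 of 8 of hair keratins, against 35.6% of all windows. It was nearly as rare in stratified keratins, at 1 of 17 (5.88%), and was in 1 of 4 windows of simple ones. The median window of a keratin-associated gene held 2.5 CpG, against 7 over all windows. Median GC content was 41.3% for keratin-associated genes, 43.7% for inner root sheath and 45.3% for hair keratins, against 52.7% over all windows. It was 50.3% for stratified and 59.7% for simple keratins. The shares of windows with a motif were not adjusted for GC content. The Krtap10-4 window held a TATA box 119 and 55 bases before the start, and the Krtap3-3 window held none of the 4 motifs as spelled. A match describes letters and is not a binding site.

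**Figure D2:**
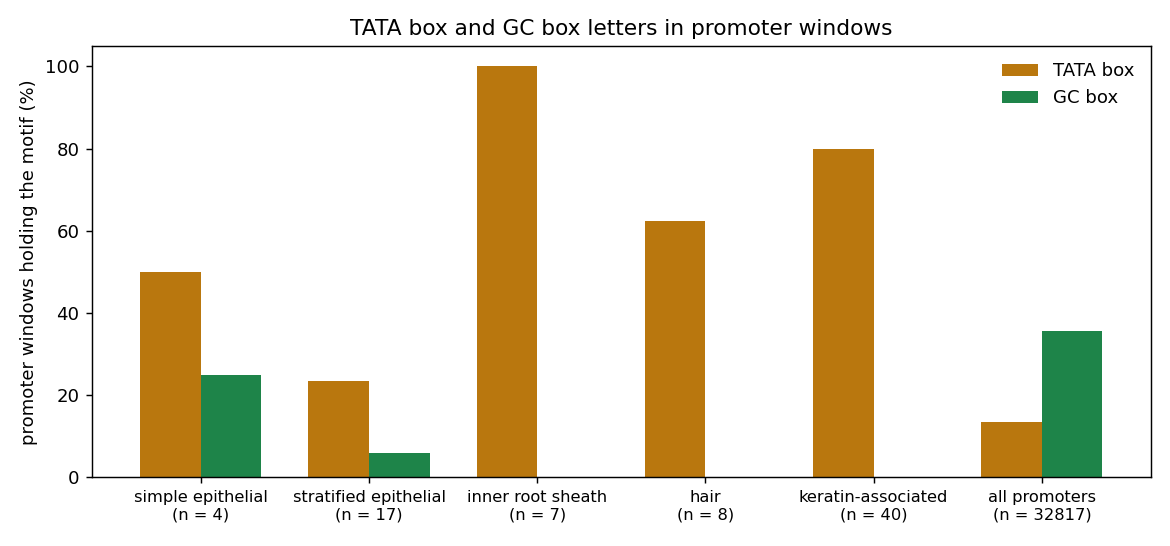
Share of promoter windows of 300 bases (y axis, percent) that held the letters of the TATA box or of the GC box on either strand, by class of gene, with the number of windows under each class. Keratin-associated genes held the TATA box in 80% of windows and the GC box in none of their 40, against 13.6% and 35.6% of all windows. Shares are not adjusted for GC content.

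Among the 22 stratified epithelial keratins 0 rose and 1 fell, against 13.6% and 15.7% of all genes. The median change was -0.0023, against 0.0013 over all genes. The 1 that fell was Krt1, the type II chain of the upper epidermis, with 5.44, 5.64 and 5.68 with VPA, against 5.74, 5.94 and 5.93 with PBS. The change was -0.28 (SE 0.08, limma adjusted p = 0.0332), all signals were below the gauge, and the call was lost without PBS replicate 2 (adjusted p = 0.123), PBS replicate 3 (0.12) or VPA replicate 2 (0.0532) and with unmoderated variances (0.138). Its partner Krt10 changed by -0.16 (limma adjusted p = 0.103), with every VPA array below every PBS array. The basal pair Krt5 and Krt14 changed by -0.14 and 0.03 (limma adjusted p = 0.161 and 0.842). Both had means below the gauge in both groups.

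Krt80, which is found in several stratified epithelia, had 6.77, 6.82 and 6.86 with VPA, against 6.88, 6.97 and 6.92 with PBS. The arrays did not overlap, but the change of -0.10 did not pass (limma adjusted p = 0.206). The largest measured difference upward in this class was that of Krt13, a type I keratin of mouth and oesophagus, at 0.27 (limma adjusted p = 0.0844). The 95% intervals of all 22 genes lay between -0.47 (Krt1) and 0.51 (Krt13).

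Of the 8 inner root sheath keratins, which form the sheath that moulds the growing hair, 0 rose and 1 fell. Over all genes 13.6% rose and 15.7% fell. Krt73 had 5.93, 5.80 and 5.92 with VPA, against 6.26, 6.25 and 6.23 with PBS. The PBS arrays lay close together just above the gauge, and the VPA arrays below it. The change was -0.36 (SE 0.06, limma adjusted p = 0.00177). The other 7 genes changed by -0.14 (Krt71) to 0.11 (Krt27), and none of them passed.

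Of the 12 keratins of the hair shaft 1 rose (8.33%) and 0 fell, against 13.6% and 15.7% of all genes. Krt34 had 6.504, 6.70 and 6.80 with VPA, against 6.40, 6.26 and 6.498 with PBS, so the lowest VPA array and the highest PBS array were nearly equal. The change of 0.28 (SE 0.09) was just inside the threshold (limma adjusted p = 0.0454) and did not pass in 9 of 17 other settings. Leaving out any single array but VPA replicate 1 ended the call, with adjusted p from 0.0509 (without PBS replicate 3) to 0.17 (without PBS replicate 2). Krt87 had 6.91, 7.06 and 7.02 with VPA, against 7.04, 7.06 and 7.02 with PBS. Its interval of -0.18 to 0.09 around -0.04 included 0. Among the 11 that did not pass, measured differences ran from -0.11 (Krt40) to 0.07 (Krt82).

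**Figure D3:**
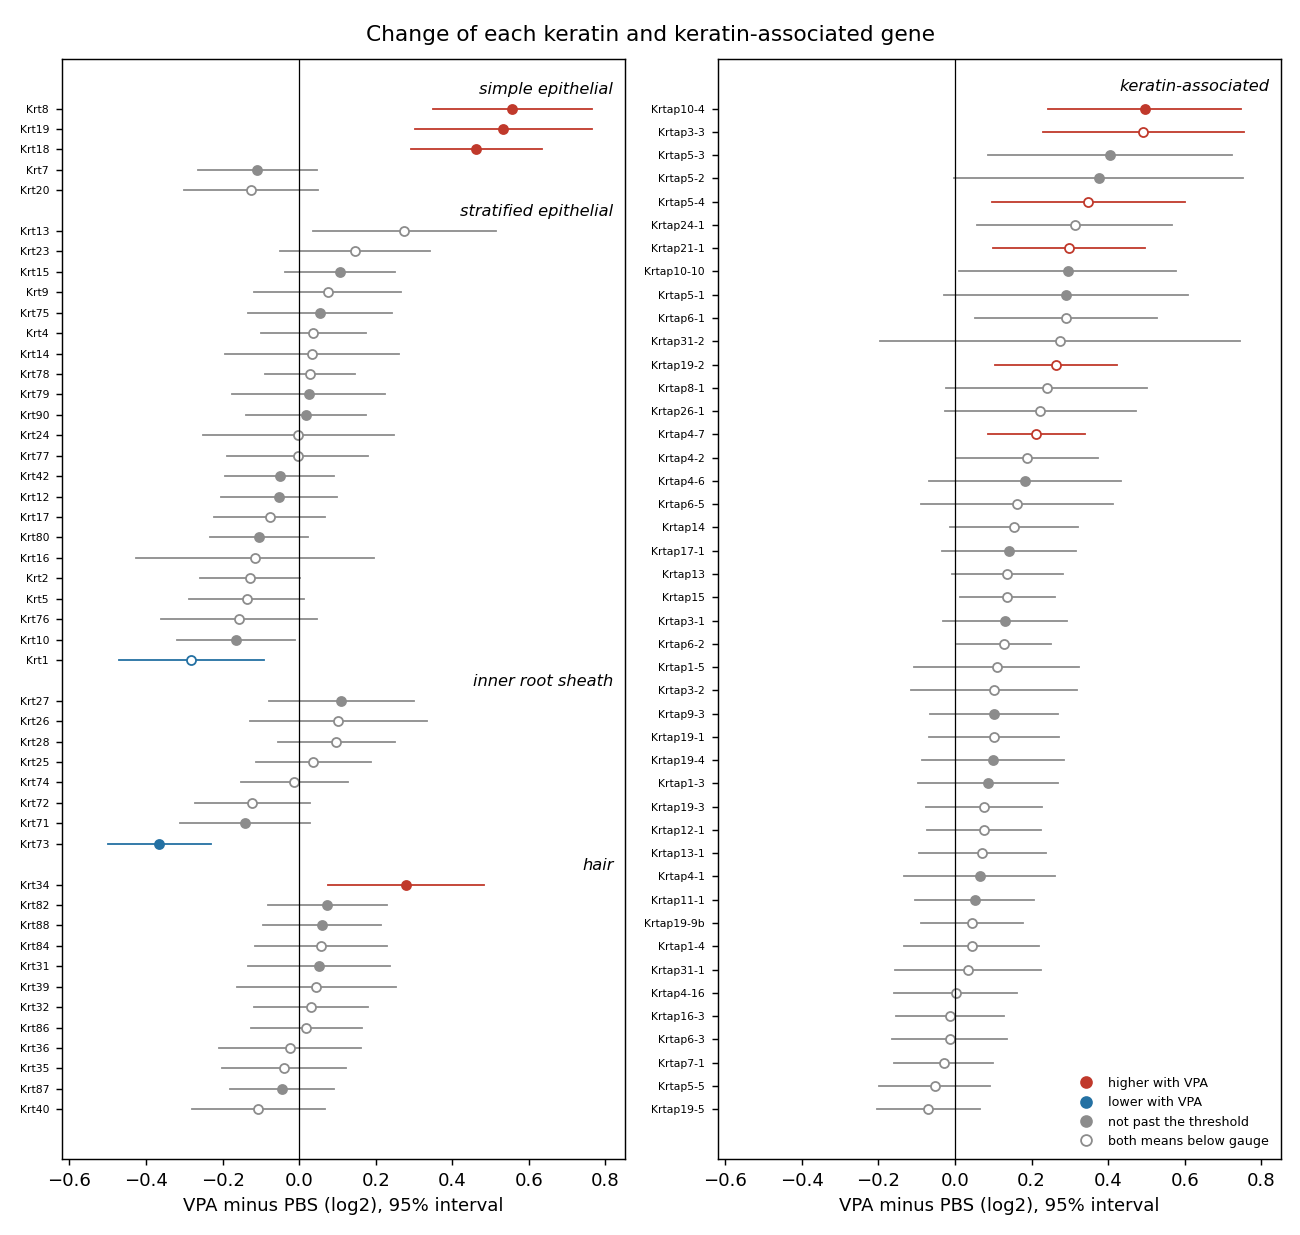
Change of each keratin (left) and keratin-associated gene (right) as VPA minus PBS on the log2 scale (x axis), with its 95% interval from limma. Colour marks genes past the threshold, and open points mark genes with both means below the gauge of 6.155. Krt8, Krt19 and Krt18 stand at 0.46 to 0.56, and 39 of 44 keratin-associated genes lie right of 0. Krt222 is not drawn.

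Of the 44 keratin-associated genes 6 rose (13.6%) and 0 fell, against 13.6% and 15.7% of all genes. A positive difference was found for 39 and a negative one for 5, with a median of 0.13. The 1027 olfactory receptor genes, measured the same way, were positive in 946 cases with a median of 0.18, and 231 of them rose and 2 fell. The lean of the keratin-associated genes was thus no larger than that of these mostly silent genes. When arrays were centred on the median of the olfactory receptor genes, a setting added after seeing the data, the median of the keratin-associated genes was -0.08, with 2 higher and 2 lower. That centring moved the median of all genes to -0.21. Under it Krt8 still passed, at 0.34 (adjusted p = 0.0423), and Krt18 and Krt19 did not, at 0.25 and 0.32 (adjusted p = 0.0731 and 0.0732).

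The lean differed between the VPA arrays. Relative to the mean of the PBS arrays, the median keratin-associated gene stood at 0.0049 on VPA replicate 1, 0.21 on VPA replicate 2 and 0.16 on VPA replicate 3. The olfactory receptor genes stood at 0.046, 0.27 and 0.22 on the same arrays. VPA replicate 1 was the lowest VPA array for 33 of 44 keratin-associated genes (75%) and for 797 of 1027 olfactory receptor genes (77.6%), against 45.2% of all genes. Without this array 22 of the 44 rose, as did 582 of the 1027 olfactory receptor genes and 3949 of all 19938 genes. The median simple epithelial keratin stood at 0.43, 0.35 and 0.44 on the VPA arrays, and none of the 5 had its lowest VPA signal on replicate 1. This median does not describe Krt7 and Krt20, which changed by -0.11 and -0.13.

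**Figure D4:**
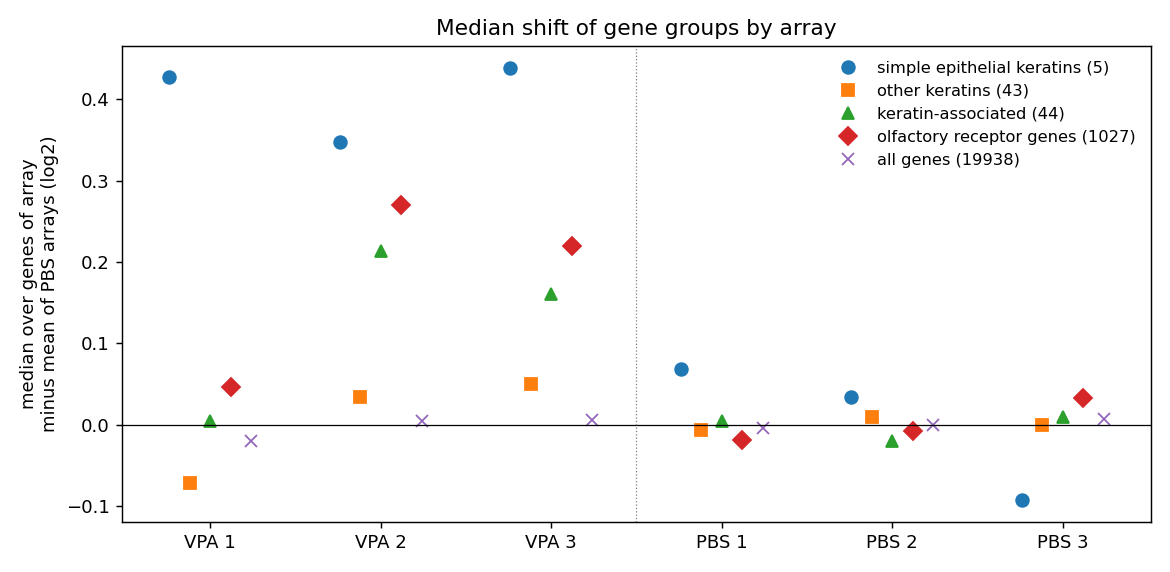
For each array (x axis), the median over a gene group of the log2 signal minus the mean of the PBS arrays (y axis). Keratin-associated genes and olfactory receptor genes stand at 0.0049 and 0.046 on VPA replicate 1 and at 0.16 to 0.27 on VPA replicates 2 and 3. The median simple epithelial keratin stands at 0.35 to 0.44 on all VPA arrays, although Krt7 and Krt20 of this group did not rise.

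By composition, as named for the human families and grouped after the values were seen, the keratin-associated genes did not separate. The median change was 0.13 for 16 high-sulfur genes, 0.185 for 12 ultra-high-sulfur genes and 0.10 for 13 high glycine-tyrosine genes, and 2 rose in each. High-sulfur proteins are rich in cysteine and form disulfide bonds with the hair keratins. Those that rose were Krtap10-4 and Krtap3-3. Krtap10-4 had 7.13, 7.52 and 7.47 with VPA, against 6.84, 6.76 and 7.03 with PBS. It rose by 0.49 (SE 0.11, limma adjusted p = 0.00979), without overlap, and was the sole keratin-associated gene that rose with means above the gauge in both groups. The call did not hold with unmoderated variances (adjusted p = 0.1).

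Krtap3-3 had 5.39, 5.84 and 5.39 with VPA, against 4.98, 5.06 and 5.11 with PBS, a change of 0.49 (SE 0.12, limma adjusted p = 0.0123), with VPA replicate 2 well above the others. The call was lost without PBS replicate 1 (adjusted p = 0.0564) and with unmoderated variances (adjusted p = 0.112). Krtap10-10, a paralogue of Krtap10-4, had 7.09, 7.22 and 7.59 with VPA, against 7.04, 6.85 and 7.13 with PBS. Its change of 0.29 did not pass (limma adjusted p = 0.114). Krtap3-1 had 7.60, 7.76 and 7.83 with VPA, against 7.66, 7.56 and 7.58 with PBS, and Krtap1-3 had 7.39, 7.61 and 7.62 with VPA, against 7.44, 7.37 and 7.55 with PBS. Both overlapped and did not pass. Krtap24-1 had 4.82, 5.31 and 5.18 with VPA, against 4.81, 4.77 and 4.80 with PBS, and was just outside the threshold (change 0.31, limma adjusted p = 0.0676).

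The ultra-high-sulfur genes that rose were Krtap5-4 and Krtap4-7. Krtap5-4 had 5.51, 5.95 and 5.89 with VPA, against 5.35, 5.42 and 5.54 with PBS. VPA replicate 1 lay below PBS replicate 3, and the change of 0.35 (SE 0.11) was just inside the threshold (limma adjusted p = 0.044). Krtap4-7 had 6.09, 6.15 and 6.17 with VPA, against 5.92, 5.88 and 5.96 with PBS, a change of 0.21 (SE 0.06, limma adjusted p = 0.0203) that turned to -0.0012 with arrays centred on the olfactory receptor genes. Of their relatives, Krtap5-3 had 8.40, 8.95 and 8.79 with VPA, against 8.19, 8.21 and 8.53 with PBS, and was just outside the threshold (change 0.40, limma adjusted p = 0.0594). Krtap5-1 had 8.05, 8.73 and 8.38 with VPA, against 8.07, 8.08 and 8.14 with PBS. VPA replicate 1 was the lowest of its 6 signals, and the change of 0.29 did not pass (limma adjusted p = 0.162).

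Krtap17-1 had 8.43, 8.70 and 8.60 with VPA, against 8.38, 8.50 and 8.43 with PBS, and Krtap9-3 had 7.66, 7.90 and 7.87 with VPA, against 7.74, 7.74 and 7.65 with PBS. Both overlapped and did not pass (limma adjusted p = 0.212 and 0.351). A further 15 probe sets are annotated to a keratin-associated gene and to other genes at once, and stand outside the family counts. Of these 7 rose and 0 fell, against 28.4% of 23410 probe sets with a symbol that passed in either direction. They hold genes of the Krtap2, Krtap4, Krtap5, Krtap6, Krtap9, Krtap10 and Krtap20 families, whose copies are similar in sequence, so the signal of 1 such gene cannot be told apart from that of its relatives.

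The high glycine-tyrosine genes that rose, Krtap21-1 and Krtap19-2, were below the gauge on every array. Krtap21-1 had 5.11, 5.38 and 5.23 with VPA, against 5.02, 4.80 and 5.01 with PBS (change 0.30, SE 0.09, limma adjusted p = 0.0318). Krtap19-2 had 4.11, 4.23 and 4.33 with VPA, against 4.003, 3.90 and 3.98 with PBS (change 0.26, SE 0.07, limma adjusted p = 0.0208). Neither overlapped. The calls of Krtap5-4, Krtap21-1 and Krtap19-2 were each lost in 8 of 15 other settings, and that of Krtap4-7 in 5. For the first 3 genes leaving out any single array but VPA replicate 1 ended the call, and so it did for Krtap4-7 except without PBS replicate 3. Without VPA replicate 1, the uncalled Krtap24-1, Krtap5-1 and Krtap5-3 passed, at 0.457, 0.456 and 0.56 (adjusted p = 0.000461, 0.0057 and 0.00352). In that setting Krtap10-10 (0.40), Krtap17-1 (0.21), Krtap3-1 (0.19), Krtap19-4 (0.18) and Krtap9-3 (0.175) passed as well, with adjusted p from 0.0205 to 0.0474, and Krtap1-3 did not (adjusted p = 0.0735). Krtap19-4, the brightest probe set of this kind, had 6.93, 7.23 and 7.12 with VPA, against 6.93, 7.07 and 6.98 with PBS, and did not pass (limma adjusted p = 0.414).

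**Figure D5:**
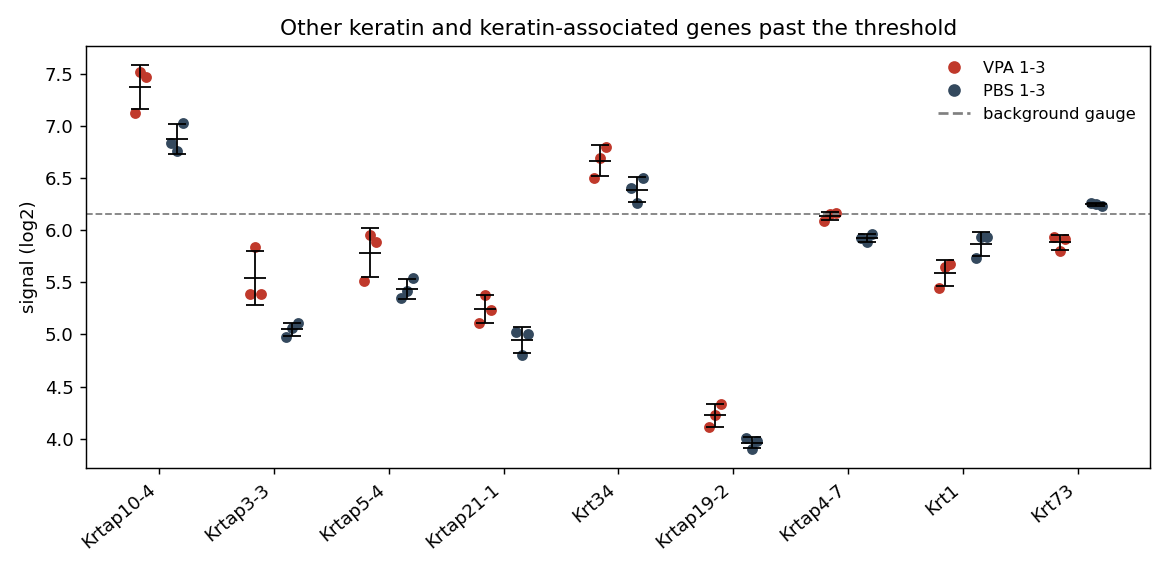
Log2 signal (y axis) of the 9 members past the threshold other than the simple epithelial keratins. Points are arrays, bars are the mean and SD of 3 arrays, and the dashed line is the gauge of 6.155. Krtap10-4 and Krt34 lie above the gauge in both groups, and Krt1 and Krt73 are lower with VPA.

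Genes that accompany keratins in epithelia were read beside them. Of 17 genes of desmosomes and plakins, which anchor keratin filaments, 3 rose and 1 fell, with a median of 0.06. That is 23.5%, against 29.2% of all genes that passed. Plec, whose product plectin links intermediate filaments to other structures, rose by 0.48 (SE 0.09, limma adjusted p = 0.0041), as did Perp by 0.49 and Dst by 0.23, while Pkp2 fell by 0.24. The keratin anchor Dsp changed by 0.13 (limma adjusted p = 0.109) with means below the gauge. Of 23 genes of epithelial adhesion and junctions 4 rose and 3 fell (30.4%), near the share of all genes. F11r and Itga6 rose by 1.16 and 0.69, and Spint2 and Ocln fell by 0.90 and 0.60. Lsr and Cdh3, a cadherin gene, rose as well, by 0.35 and 0.30 (limma adjusted p = 0.0106 and 0.0348). F11r and Cdh3 were below the gauge with PBS and Ocln with VPA. Cdh1, the epithelial cadherin, fell by 0.27 (SE 0.08, limma adjusted p = 0.0396), and Epcam changed by 0.05 (limma adjusted p = 0.591). Dsp, Lsr, Cdh3, Cdh1 and Epcam were named after their values were seen.

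Of 15 transcription regulators of epithelia 3 rose and 1 fell (26.7%, against 29.2% of all genes). Tfap2a, which surface ectoderm and neural crest express, rose by 0.61, Klf5 by 0.25 and Klf4 by 0.21, and Grhl3 fell by 0.19; Klf4 was below the gauge with PBS. Of 23 genes of the cornified envelope, the outer shell of epidermal cells, 0 rose and 2 fell (8.7%): Sbsn changed by -0.44 and Lor by -0.35.

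Markers of cells that can make simple keratins, or that moved with them, were as follows. Of 12 fibroblast markers 12 rose, with a summed linear signal of 11970 to 13310 on VPA arrays and 3345 to 3947 on PBS arrays; the largest changes were those of Postn (2.66), Lum (2.29), Dcn (2.28) and Prrx1 (1.90). Of 12 visceral endoderm markers 2 rose and 1 fell (1687 to 1744 with VPA, 1219 to 1226 with PBS), namely Dab2 (1.85), Gata6 (0.53) and Cubn (-0.43). Of the 12, 3 were below the gauge in both groups, among them Afp, which was named after its values were seen. Of 8 mesothelial markers 1 rose and 1 fell (588.4 to 644.7 with VPA, 656.2 to 725.1 with PBS), Bnc1 by 0.38 and Rspo1 at -0.54. Of 10 choroid plexus markers 0 rose and 3 fell (1741 to 2079 with VPA, 3548 to 4199 with PBS), Ttr (-1.90), Otx2 (-1.24) and Folr1 (-0.24). Of 8 trophoblast markers 2 rose and 1 fell (554.6 to 665.2 with VPA, 718.8 to 824.7 with PBS), Tpbpa (1.32), Plac1 (0.24) and Eomes (-1.95). Bnc1 and Plac1 were below the gauge in both groups. Of 5 notochord and floor plate markers 2 rose, Ntn1 by 1.46 and Shh by 0.53 (967.5 to 1583 with VPA, 607.5 to 654.3 with PBS). Of 10 markers of surface ectoderm and epidermis 2 rose and 1 fell (1656 to 1744 with VPA, 1344 to 1408 with PBS), the genes Tfap2a, Perp and Grhl3 given above. Of 9 pluripotency markers 0 passed, 0 had an unadjusted p under 0.05, and Nanog and Dppa5a had the smallest p (changes 0.19 and 0.14; 536.7 to 581.6 with VPA, 499.9 to 577.1 with PBS). A summed signal depends most on the brightest genes of a list. The median change was 1.53 for fibroblast markers, 0.05 for visceral endoderm, 0.04 for mesothelium and -0.05 for choroid plexus. It was 0.03 for trophoblast, 0.18 for notochord and floor plate, 0.04 for surface ectoderm and 0.05 for pluripotency. The share that passed was 100% for fibroblast, 0% for pluripotency and 25% to 40% for the other lists, against 29.2% of all genes. The part of these cell types in the rise of Krt8, Krt18 and Krt19 was not tested.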

How the data were processed

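RNA of 6 cultures was measured on Affymetrix arrays after whole transcript sense target labelling, per the labels' protocols. The authors deposited 1 normalized log2 signal per probe set and array; base 2 was inferred from the range. The submitters' processing notes list Partek 6.5 and build mm9, without saying what each was used for. How background was corrected and how signals were summarized and normalized is not given in the sources used here. Normalization between arrays removes differences in total RNA, so changes are relative to other genes. No detection calls were used, and the number of arrays limits the precision.

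Of 35556 probe sets, 21789 had 1 symbol in GEO's platform annotation, 1621 several and 12146 none. Symbols were updated through the Entrez ID against RefSeq (21698 matched, 91 did not), which changed 0 member symbols, and a gene was represented by its brightest probe set. VPA was compared with PBS with limma 3.58.1 in R 4.3.3 (lmFit, eBayes, no covariates), with Benjamini-Hochberg adjustment over 19938 genes and a threshold of 0.05; the SE and the 95% interval are those of this fit. An exact permutation test of 3 against 3 arrays cannot give a two-sided p below 0.1. The fit was tested on simulated data with independent noise for each gene and array. Such data hold no shift of a whole array and no lean of a gene group, so the test does not cover these. The members, lists and tests were chosen with earlier results of these data known. Members named are the simple epithelial keratins, those past the threshold, the 10 brightest others above the gauge, and the 2 nearest the threshold on each side; from other lists, up to 4 genes past the threshold with the largest change, or the 2 with the smallest p. The probe sets shared by several genes were fitted with all 23410 probe sets that had a symbol. Alternatives were quantile normalization, centring, filters on dim genes, variance models, array weights, the replicate block, the mean of probe sets, platform symbols and leaving out each array.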

Additional observations from a re-analysis of the deposited data

Results flagged for a closer look

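Probe sets annotated to several genes were left out of the comparison, and 15 of them list a keratin-associated gene. All 15 had a positive difference (VPA minus PBS, log2), from 0.13 to 0.76, and 7 rose by limma over 23410 probe sets (adjusted p under 0.05), against 13.6% of all those probe sets that rose. Olfactory receptor genes leaned the same way, with 946 of 1027 positive. VPA replicate 1 was the lowest VPA array for all 15. Several of the 15 list the same genes, so they are not independent. They are reported because they lie outside the main measurement and the means of these 7 were higher on the VPA arrays than on the PBS arrays. For those of Krtap20-2, Krtap10-4 with Krtap10-10, and Krtap4-13, VPA replicate 1 lay below PBS replicate 3, so the groups overlapped. The changes were 0.762 for a probe set of Krtap20-2, 0.751 for one of Krtap6-1 and Krtap6-5, and 0.415 for one of Krtap10-4 and Krtap10-10. Probe sets of the Krtap5 family changed by 0.558 (Krtap5-1, Krtap5-4 and Krtap5-5), 0.465 (Krtap5-2 and Krtap5-3) and 0.36 (Krtap5-2, Krtap5-4 and Krtap5-5), and 1 of Krtap4-13 by 0.288. Each lists further genes except that of Krtap5-2 and Krtap5-3. A pair of Krtap2-4 probe sets had identical values on every array.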

How the results depend on the processing

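The count of keratin and keratin-associated genes past the threshold, 12 with 10 higher and 2 lower, moved with the processing. It was 6 (6 higher, 0 lower) with either filter on dim genes, which left fewer members to test, 6 (5 higher, 1 lower) without moderation of the variances, and 38 (34 higher, 4 lower) with array weights. With quantile normalization it was 8 higher and 6 lower. With arrays centred on the olfactory receptor genes, added after seeing the data, it was 22 (3 higher, 19 lower); by construction it lowers the VPA arrays relative to the PBS arrays. Leaving out 1 array gave 6 to 33 calls, 4 to 30 higher and 1 to 3 lower. Over all genes, 5825 passed (2702 higher, 3123 lower), against 3731 (1631 higher) without moderation, 8917 (4342 higher) with array weights and 895 higher with 7409 lower under the olfactory centring. Leaving out 1 array gave 3836 to 8173, 1778 to 3949 higher and 2058 to 4224 lower. The olfactory centring turned Krtap4-7 (-0.0012), Krtap17-1 (-0.0723), Krtap9-3 (-0.112), Krtap3-1 (-0.0833), Krtap1-3 (-0.127) and Krtap19-4 (-0.114). The calls of Krt8, in 17 settings, and Krt73, in 15, were kept in each. Both filters on dim genes removed Krt73, whose mean over all arrays, 6.07, lay below the gauge of 6.155. Krt18 lost its call in 1 setting and Krt19 in 2. With the replicate block 14 members passed (12 higher, 2 lower), among 5410 genes. Deviations of same-numbered arrays correlated at -0.0199, -0.00849 and 0.0196, and not every array correlated best with its own number. Correlations this small cannot settle whether same-numbered arrays were made together. Where no construction is named, the cause was not tested. Signals below 6.155 limit what can be said of 59 members.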

Other observations

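Other intermediate filament genes changed more than the keratins in some cases. Of 17 such genes 5 rose and 2 fell (41.2%, against 29.2% of all genes), with a median of -0.02. Nefm, a neurofilament gene, rose by 1.24 (SE 0.06) and its partner Nefl by 0.53 (SE 0.06), the muscle filament gene Des by 0.83 (SE 0.08), with 5.71 on average in PBS arrays, under the gauge, and the neural progenitor filament gene Nes by 0.38 (SE 0.09), all by limma over 19938 genes. Vim, named after its values were seen, was at 13.03 with VPA and 13.09 with PBS and did not pass (limma adjusted p = 0.429).

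Of 15 regulators and structural genes of the hair follicle 1 rose and 4 fell (33.3%, against 29.2% of all genes), with a median of -0.09. Gata3 and Lef1, transcription factor genes that the hair follicle shares with the developing nervous system, changed by -1.02 (SE 0.13) and -0.95 (SE 0.08), Trps1 by -0.36 (SE 0.11) and Msx2 by 0.24 (SE 0.06).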
